A study of Mus musculus with 2 samples.

Results

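Among the myeloid-derived suppressor cells (MDSC) profiled by single-cell RNA sequencing, one set of cells carried a high summed level of the chemokine transcripts Ccl3 and Ccl4. No transcript of Mmp13, which encodes collagenase 3, was captured in them. The set was defined by a gate and not by clustering. A cell barcode needed at least 1000 UMIs (unique molecular identifiers, each standing for 1 captured transcript) and at most 10% mitochondrial UMIs. Members then held at least 30 Ccl3 and Ccl4 UMIs together per 10,000 UMIs of the cell and 0 Mmp13 UMIs. They also held under 30 UMIs of the MHC class II genes H2-Aa, H2-Ab1 and H2-Eb1, under 10 of C1qa, C1qb and C1qc, under 10 of Mmp12, and under 20 of the basophil proteases Mcpt8 and Prss34, each per 10,000. Across both libraries 738 of 21486 deposited barcodes were members, 192 of 9855 in the DMSO library and 546 of 11631 in the dabrafenib (DAB) library.

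Marrow cells from tibia and femur of female C57BL/6 mice aged 10 weeks were cultured for 4 days, and both conditions received the cytokines IL-6 (50 ng/mL) and GM-CSF (50 ng/mL). One culture condition contained 1.5 µM dabrafenib and the other an equal volume of its solvent DMSO, and each was captured as 1 library (10x Genomics 5′ v2 kit). How many mice a library pools is not stated in the sources used here. With 1 library per condition no test between conditions was possible: the intervals below are 95% intervals for counting error only, and the effect of the drug and the difference between 2 libraries cannot be told apart.

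CCL3 and CCL4, also called macrophage inflammatory protein 1 alpha and 1 beta, are secreted CC chemokines that draw in leukocytes, and CCL3 acts through CCR1 among other receptors. Macrophages, monocytes, neutrophils and activated lymphocytes can make them, and transcription of both genes is rapidly induced by inflammatory signals. MDSC are immature monocytic and granulocytic cells that dampen T-cell responses, and dabrafenib is an inhibitor of mutant BRAF kinase that was studied here for its action on GCN2, the kinase that senses amino acid shortage. In the mouse genome (GRCm38, GENCODE vM21 annotation) Ccl3 lies at chr11:83647844-83649355 on the minus strand and Ccl4 at chr11:83662584-83664683 on the plus strand, 13228 bases apart.

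The members were shallow cells. In the DMSO library they held 1130924 UMIs, with a median of 3400 per cell (range 1109 to 39411), against a median of 8430 in the 9429 other cells that passed the same filters on UMIs and mitochondrial share. In the DAB library they held 3651184 UMIs, with a median of 3721.5 (range 1066 to 70492), against 11014 in the 10868 other cells. Mitochondrial transcripts made up a median of 0.467% of UMIs in DMSO and 0.323% in DAB members. Because a cell with few UMIs can miss a rare transcript, 0 Mmp13 UMIs in a shallow member is not a measured absence. The chemokine limit is a rate, so a shallow cell could meet it with few molecules. Members held a median of 22.5 Ccl3 plus Ccl4 UMIs in DMSO and 26 in DAB, with a minimum of 4 in each library. The libraries shared 152 barcode sequences, which included 2 DMSO and 12 DAB members, 1 of them a member in both libraries.

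Each limit of the gate removed a different number of chemokine-high cells. In the DMSO library 255 of 9621 passing cells reached the chemokine level, of which 16 held Mmp13, 45 exceeded the Mmp12 limit, 9 the basophil limit, 6 the MHC class II limit and 2 the C1q limit, with some cells failing more than 1 limit. In the DAB library 710 of 11414 cells reached it, of which 108 held Mmp13 and 69, 8, 2 and 2 exceeded the same limits in that order. Members were 2.00% of passing DMSO cells (Clopper-Pearson interval 1.73 to 2.30) and 4.78% of passing DAB cells (4.40 to 5.19), a 2.40-fold higher share in the DAB library (log2 ratio 1.26, interval 1.02 to 1.51). These shares describe the values that chose the cells.

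**Figure D1:**
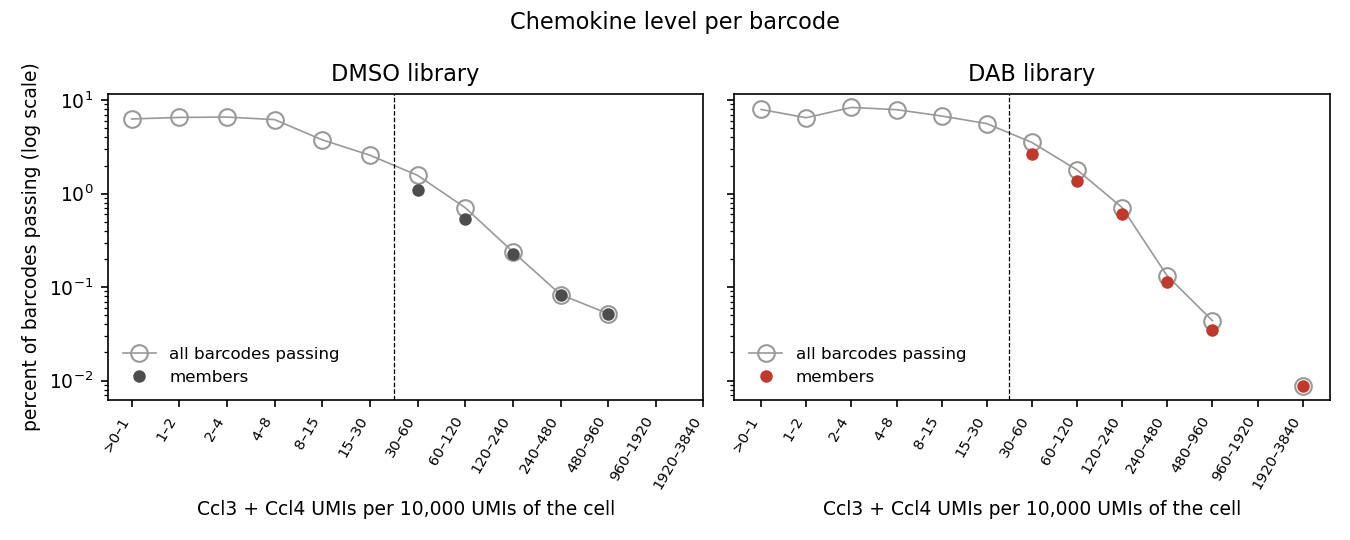
Percent of passing barcodes (vertical axis, log scale) in each interval of Ccl3 plus Ccl4 UMIs per 10,000 UMIs of the cell (horizontal axis), for the DMSO library on the left and the DAB library on the right. Open circles are all barcodes that passed the UMI and mitochondrial filters and filled circles are members; cells with 0 chemokine UMIs, 65.4% in DMSO and 50.7% in DAB, are not drawn, and the dashed line marks the limit of 30.

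No gap in chemokine level set the members off from the remaining cells, as the plot of chemokine level per barcode shows. Between 30 and 33 per 10,000 there were 19 DMSO and 49 DAB members, and between 27 and 30 there were 16 DMSO and 59 DAB cells that met the other limits. The lowest DMSO member stood at 30.05 and the highest such cell below the limit at 29.82, and in the DAB library these values were 30.04 and 29.87. The members are therefore the upper range of a continuous distribution. Their median level was 53.3 per 10,000 in DMSO and 53.5 in DAB, and the highest cells reached 799 and 2186.

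The 3 markers that the gate did not use were higher in the members than in the other cells of both libraries. Hcar2, a receptor for niacin and the ketone body beta-hydroxybutyrate, stood at 383 CPM (UMIs of a gene per 1000000 UMIs, summed over the cells of a group) in DMSO members against 68.3 in the other cells, and at 442 against 67.8 in the DAB library. Atp6v0d2, a subunit of the proton pump (V-ATPase) that is known from macrophages and osteoclasts, stood at 271 against 60.1 CPM in DMSO and at 358 against 49.2 CPM in DAB. Gpnmb, a glycoprotein of lysosomes and the cell surface, stood at 620 against 221 CPM in DMSO and at 1054 against 207 CPM in DAB. Every gene of the chosen cells can be tied to the gate, so these differences are descriptions and support nothing about the cells.

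The share of members with a UMI of these markers depended on depth. After each cell was thinned at random to 1000 UMIs, Hcar2 was present in 41.7% (34.6 to 49.0) of the members in DMSO and 39.4% (35.3 to 43.6) in DAB, against 9.45% and 10.3% of the other cells. Atp6v0d2 was found in 28.1% and 31.9% of members and Gpnmb in 19.3% and 26.2%, against 5.11% to 11.3% of the other cells. In B cells (at least 1 Cd79a and 1 Cd79b UMI, at least 10 UMIs of Cd79a, Cd79b, Ms4a1 and Ebf1 together per 10,000, and under 10 of Lyz2 per 10,000), which should lack these genes, none of the 3 exceeded 0.926%; their median depth was 4277 UMIs in DMSO (108 cells) and 5418.5 in DAB (166 cells). At 3000 UMIs per cell, which left 106 DMSO and 357 DAB members, Hcar2 was present in 42.5% (32.9 to 52.4) and 52.9% (47.6 to 58.2), Atp6v0d2 in 38.7% and 47.3%, and Gpnmb in 37.7% and 42.6%. Without thinning the members' shares were 67.2% and 68.1% for Hcar2, 49.0% and 59.7% for Atp6v0d2, and 32.8% and 36.1% for Gpnmb.

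The 3 markers were spread over other cells in different ways, so none was particular to the members. Cells with at least 5 Csf3r UMIs per 10,000, no Ly6g, little Mmp12 and Ccl3 plus Ccl4 below the limit held Hcar2 at 256 CPM in DMSO and 329 CPM in DAB. The same Csf3r-high cells held Atp6v0d2 at 83.3 and 178 CPM. Gpnmb was at 532 and 423 CPM in cells with at least 10 Mmp12 UMIs per 10,000 and chemokines below the limit. It was at 1076 CPM in the Mmp13-positive chemokine-high cells of the DAB library, but at 23.8 CPM in the 7 such DMSO cells.

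**Figure D2:**
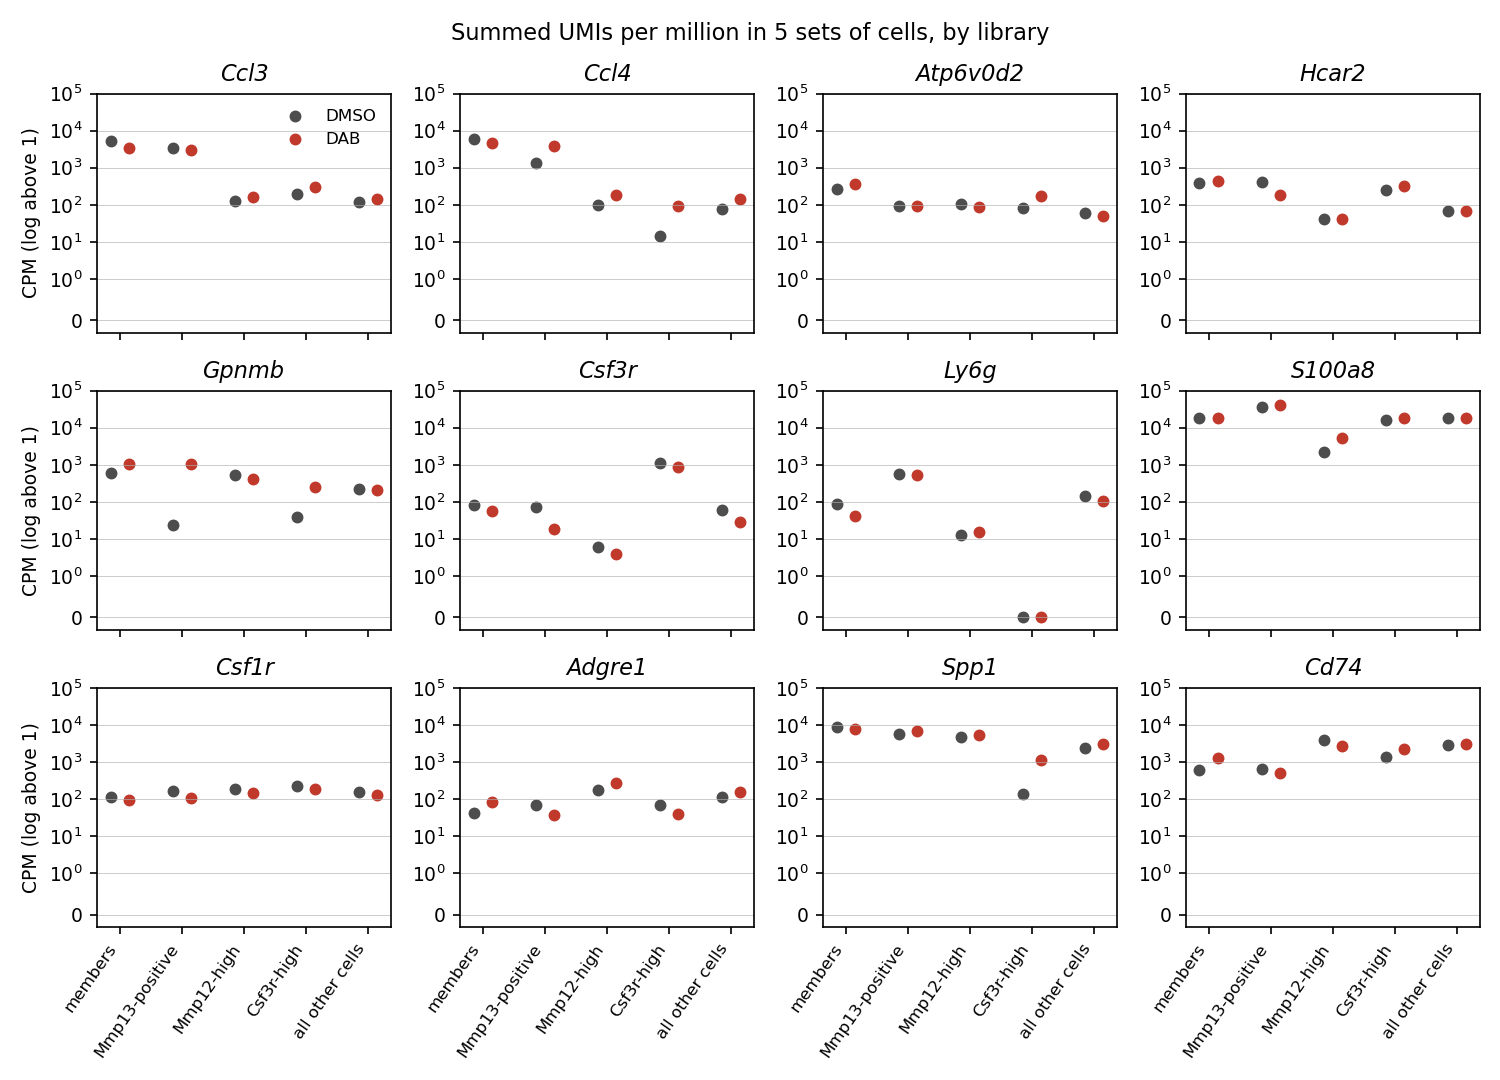
Level of 12 genes in CPM (vertical axis, log above 1 and linear below) in members, in Mmp13-positive, Mmp12-high and Csf3r-high cells and in all other cells, with 1 point per library. In both libraries Hcar2 and Atp6v0d2 are higher in members than in the other cells, at 383 against 68.3 and 271 against 60.1 CPM in DMSO.

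As a set, the members carried transcripts of both neutrophils and monocytes. S100a8, a calcium-binding protein abundant in neutrophils and monocytes, stood at 18707 CPM in DMSO and 17790 CPM in DAB members, beside 18189 and 17820 CPM in the other cells. Csf3r, the receptor for G-CSF, was at 81.3 and 58.6 CPM, and Csf1r, the receptor for M-CSF, at 111 and 93.4 CPM. Itgam, which encodes CD11b, was at 361 and 436 CPM. After thinning, Csf3r and Csf1r were found together in 1 of 192 DMSO and 3 of 546 DAB members, and without thinning in 17 and 37.

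By all their UMIs, 63 DMSO members held at least 2 UMIs of both the neutrophil markers (without S100a8, S100a9, Mmp9 and G0s2) and the monocyte markers (without Cd14, Itgam and Mgst1). Another 73 held at least 2 of the neutrophil markers only, 14 of the monocyte markers only, and 42 (21.9%) of neither. In the DAB library these numbers were 163, 169, 20 and 194 (35.5%). After thinning, at least 2 UMIs of the neutrophil markers were held by 35.4% of DMSO and 30.4% of DAB members. At least 2 of the monocyte markers were held by 6.25% and 6.59%. Both sets were then held by 4 DMSO and 21 DAB members, and neither by 60.4% and 66.85%. At least 1 thinned neutrophil UMI was held by 58.3% and 54.4% of members, against 70.2% and 70.7% of other cells. For monocyte markers these shares were 22.9% and 21.8% against 42.5% and 43.9%. B cells, which should lack both sets, held at least 2 neutrophil UMIs in 14.8% and 14.5% of cells and at least 2 monocyte UMIs in 5.56% and 3.61% by all their UMIs, and in 1.85% and 3.61% and in 0.926% and 1.20% after thinning. The numbers above therefore count members with such UMIs, background included, and not members that express the markers. Since members were shallow, the cells with neither include cells in which such transcripts may have gone uncaptured. The set therefore keeps the name of its leading genes, and no lineage name is given to it.

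Transcripts of lymphoid and erythroid cells were rare or at 0. Of 5 B-cell markers 4 were at 0 in DMSO and 2 in DAB members, and their summed level was 0.884 and 1.37 CPM (most abundant Cd79a), against 20.6 and 30.9 CPM in the other cells. The 6 T and NK cell markers summed to 3.54 and 1.37 CPM, with 4 at 0 in each library and Nkg7 and Cd3d the most abundant. The 4 erythroid markers summed to 0.884 and 0.548 CPM, with 3 at 0 and Klf1 the most abundant. The 6 basophil and mast cell markers, of which the gate limits Mcpt8 and Prss34, summed to 10.6 CPM in DMSO and 45.7 CPM in DAB members, none at 0 and Gata2 the most abundant at 6.19 and 34.8 CPM, below the 121 and 184 CPM of the other cells.

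Of 15 macrophage markers 6 were at 0 in DMSO members, C1qa, C1qb, C1qc, Cd163 and Timd4 among them, and Cd163 and Timd4 were at 0 in DAB members (the gate limits C1q), and the list summed to 813 and 877 CPM with Cd68 the most abundant at 559 and 515 CPM. The 4 eosinophil markers summed to 12.4 and 33.4 CPM with Epx and Ccr3 at 0 in DMSO, and the 3 megakaryocyte markers to 6.19 and 81.1 CPM, of which Pf4 made up 4.42 and 74.8 CPM. The 8 dendritic cell markers, 3 of them limited by the gate, summed to 738 and 1417 CPM with Cd74 the most abundant at 627 and 1267 CPM, against 4463 and 4486 CPM in the other cells. The 9 primary granule genes, which mark granulocyte progenitors, summed to 166 and 234 CPM against 497 and 393 CPM.

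Compared with the other cells of their own library, members held more transcripts of inflammatory ligands and fewer of the cell cycle. Cells more like the members shared parts of both traits, as the summed lists below show. Of 5493 genes with at least 20 CPM, 158 were at least 2-fold higher in members of both libraries with counting intervals that left out 0, 2.88% of those tested, and 159 were lower, 2.89%. The gate chose the cells on genes of this same comparison, so the counts are descriptive. The median log2 ratio over all genes was -0.05 in DMSO and 0.03 in DAB.

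A total of 6 of the 10 tested chemokine ligand genes were among the higher ones, namely Ccl3 and Ccl4, on which cells were chosen, and Ccl2, Ccl9, Cxcl2 and Cxcl3. Summed, the chemokine ligand list stood at 26447 CPM in DMSO and 30570 CPM in DAB members. In the Mmp13-positive chemokine-high cells it stood at 23825 and 52213 CPM. Cxcl2, a neutrophil attractant that binds CXCR2, stood at 1749 CPM in DMSO members against 124 CPM in the other cells, and at 2587 against 522 CPM in the DAB library. Its log2 ratio was 3.82 (3.75 to 3.89) in DMSO and 2.31 (2.28 to 2.34) in DAB. Ccl9, a CC chemokine that binds CCR1, stood at 1449 against 578 CPM and at 1307 against 648 CPM. Ccl24 was the only tested ligand of the list called lower in both libraries, at 0.884 against 201 CPM and 24.1 against 132 CPM. Pf4, platelet factor 4, stood at 4.42 against 102 CPM in DMSO and 74.8 against 105 CPM in DAB, short of 2-fold in the latter.

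Among 13 tested chemoattractant receptor genes, Ccrl2, Cxcr4, Ptafr and Hcar2 were higher and Ccr2 was lower. Ccrl2, an atypical receptor that binds chemerin, stood at 82.2 against 9.83 CPM in DMSO and 47.9 against 8.82 CPM in DAB. Ccr2, which marks classical monocytes, stood at 27.4 against 106 CPM and at 6.30 against 30.1 CPM.

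A total of 7 of 10 tested cytokine genes were higher in members, Il1a, Il1b, Il1rn, Tnf, Osm, Csf1 and Hbegf, with list medians of 2.62 in DMSO and 1.95 in DAB on the log2 scale, and none was called lower. Summed, the cytokine list stood at 3892 CPM in DMSO and 3397 CPM in DAB members, beside 1950 and 3139 CPM in the Csf3r-high cells. Il1b, the pro-form of interleukin 1 beta, stood at 386 against 50.2 CPM in DMSO and 171 against 28.2 CPM in DAB. Il1rn, which encodes the antagonist of the interleukin 1 receptor, stood at 1409 against 236 and 1293 against 315 CPM. Csf1, the ligand of Csf1r, stood at 413 against 64.9 and 473 against 96.1 CPM. Il1b was held by 61 of 192 DMSO and 139 of 546 DAB members and Il1rn by 173 and 495, beside 8 of 108 and 8 of 166 B cells.

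Rapidly induced regulators were also represented. A total of 6 of 17 tested AP-1 and immediate early genes were higher, Jun, Atf3, Egr2, Egr3, Maff and Dusp1, and none was called lower. Dusp1, a phosphatase that inactivates MAP kinases, stood at 128 against 17.4 CPM in DMSO and 107 against 12.4 CPM in DAB. Gadd45b, a stress-inducible gene, stood at 333 against 60.6 and 137 against 22.9 CPM. Of 22 tested NF-kB pathway genes Nfkbid, Tnfaip3 and Ptgs2 were higher. Neither list was particular to the members. Summed, the AP-1 and immediate early list stood at 3958 CPM in DMSO and 3136 CPM in DAB members, against 4530 and 3951 CPM in the Csf3r-high cells. The NF-kB list stood at 2672 and 2605 CPM in members and at 2190 and 3842 CPM in the Csf3r-high cells. Ptgs2, which encodes cyclooxygenase 2, was low in level, at 27.4 against 2.67 CPM in DMSO and 22.2 against 3.33 CPM in DAB, with UMIs in 11 and 52 members.

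Outside the genes of the gate, F3, which encodes tissue factor and starts blood clotting, had the largest ratio by the rule used for naming, 50.4 against 3.39 CPM in DMSO and 20.3 against 1.94 CPM in DAB. It was held by 23 of 192 and 49 of 546 members. Cd14, the co-receptor for lipopolysaccharide, was held by 107 and 383 members, at 684 against 127 CPM and 665 against 135 CPM. Ralgds, an activator of Ral GTPases, stood at 117 against 16.2 CPM and 113 against 21.5 CPM.

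Genes of the lysosome and its acidification stood above the median gene. All 17 tested V-ATPase genes together had median log2 ratios of 0.85 in DMSO and 0.88 in DAB, and Atp6v0d2, Atp6v1c1 and Atp6v1e1 were called higher. Summed, the V-ATPase genes stood at 6074 CPM in DMSO and 7352 CPM in DAB members, beside 5127 and 6741 CPM in the Csf3r-high cells. Of 32 tested lysosome genes 8 were called higher and none lower, among them Ctsb, Cd63, Cd68, Npc1, Gla, Cd9 and Gpnmb. Ctsb, the protease cathepsin B, stood at 733 against 342 CPM and 849 against 266 CPM. In all, 3 of 9 tested iron genes were higher, Hmox1, Fth1 and Slc11a1. Fth1, the heavy chain of the iron store ferritin, stood at 43975 against 18076 CPM in DMSO and 49062 against 19485 CPM in DAB.

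A total of 6 of 18 tested genes of the immunosuppressive list were higher in members, among them Cd274, Ptgs2, Hmox1, Gpnmb and Spp1. Cd274, which encodes PD-L1, stood at 316 against 141 CPM in DMSO and 141 against 65.8 CPM in DAB. Spp1, the secreted protein osteopontin, stood at 8636 against 2323 and 7552 against 3081 CPM. It was present in 54.7% of DMSO and 77.7% of DAB members, and in 43.2% and 61.2% after thinning. The B cells also had more of it in the DAB library, at 82.1 and 505 CPM, and 14.8% and 28.3% of them held a UMI (4.63% and 13.3% after thinning).

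The cell cycle genes were low. Of 15 tested proliferation genes 14 were lower in members of both libraries, with medians of -2.81 in DMSO and -3.20 in DAB. This was not particular to the members. Summed, the proliferation list stood at 232 CPM in DMSO and 184 CPM in DAB members. It stood at 95.2 and 97.3 CPM in the Mmp13-positive chemokine-high cells and at 158 and 183.5 CPM in the Csf3r-high cells. Mki67, the Ki-67 antigen of cycling cells, stood at 17.7 against 116 CPM in DMSO and 13.7 against 73.5 CPM in DAB. Birc5, Cdc20, Prc1, Ccnb2, Cenpf, Spc24 and Pclaf, which act in mitosis or DNA replication, were each at or below 5.48 CPM in members. All 77 ribosomal protein genes were tested and none was called, with medians of -0.48 and -0.56.

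Other genes with large negative ratios included Slc8a1, a sodium and calcium exchanger, Plet1, and Kmo, an enzyme of tryptophan breakdown. Slc8a1 stood at 1.77 against 44.4 CPM in DMSO and 1.37 against 35.5 CPM in DAB, and Kmo at 0.884 against 27.9 and 2.19 against 20.3 CPM. Immunoglobulin transcripts were nearly lacking: Ighm was at 0.884 against 45.0 and 0.548 against 25.9 CPM, and Igkv3-4, whose reads can be split among similar V genes, had 0 UMIs in both member sets. In all, 4 of 10 tested secondary granule genes, Ltf, Camp, Ngp and Ifitm6, were lower. Of 11 tested monocyte genes Ccr2, F13a1 and Irf8 were lower and Cd14 and Zeb2 higher, Zeb2, a transcription factor, at 593 against 255 CPM in DMSO.

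The 2 chemokines that defined the cells were balanced differently in the libraries. In DMSO members Ccl3 stood at 5259 CPM and Ccl4 at 5860 CPM, and in DAB members they stood at 3358 and 4588 CPM. Per cell, Ccl3 made up a median of 86.0% of the Ccl3 plus Ccl4 UMIs in DMSO (quartiles 47.0 to 100.0%) and 52.6% in DAB (31.2 to 79.3%). Ccl4 was not detected in 66 of 192 DMSO members and 50 of 546 DAB members, whereas Ccl3 was not detected in 2 and 14. At 1000 UMIs per cell Ccl4 was present in 49.5% (42.2 to 56.8) of the members in DMSO and 77.5% (73.7 to 80.9) in DAB, and Ccl3 in 94.8% and 88.1%. In B cells these shares were 2.78% and 1.81% for Ccl4 and 2.78% and 1.20% for Ccl3.

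The summed Ccl4 level and its share of cells ordered the libraries differently. The top cell alone held 11.7% of all Ccl4 UMIs of DMSO members and 3.20% of those of DAB members. In members under 5000 UMIs the Ccl4 level was 1669 CPM in DMSO and 4289 CPM in DAB, and in deeper members 7253 and 4707 CPM. Ccl3 in the same order stood at 5549 and 4552 CPM in the shallower and at 5163 and 2885 CPM in the deeper cells. The order of the libraries for Ccl4 therefore depended on depth, while Ccl3 was lower in DAB members at both depths.

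Members of low and high UMI count were different in composition. In DMSO 113 members held fewer than 5000 UMIs (median 2312) and 79 held more (median 9301), and in DAB 353 (median 2880) and 193 (median 11259). Hcar2 stood at 737 CPM in the shallower and 265 CPM in the deeper DMSO members, and at 1133 and 168 CPM in DAB. Atp6v0d2 stood at 464 and 206 CPM in DMSO and at 807 and 179 CPM in DAB. Csf3r followed the same order, at 244 and 27.1 CPM in DMSO and at 169 and 14.9 CPM in DAB.

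The deeper members held more Spp1, Lpl and S100a8. Spp1 stood at 942 CPM in the shallower and 11195 CPM in the deeper DMSO members, and at 3705 and 9078 CPM in DAB. Lpl, the lipoprotein lipase, stood at 124 and 706 CPM in DMSO and at 19.3 and 252 CPM in DAB. Chil3, a chitinase-like secreted protein, stood at 2874 and 4209 CPM in DMSO and at 344 and 2057 CPM in DAB. Gpnmb did not keep one order, with 833 and 549 CPM in DMSO but 658 and 1211 CPM in DAB.

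**Figure D3:**
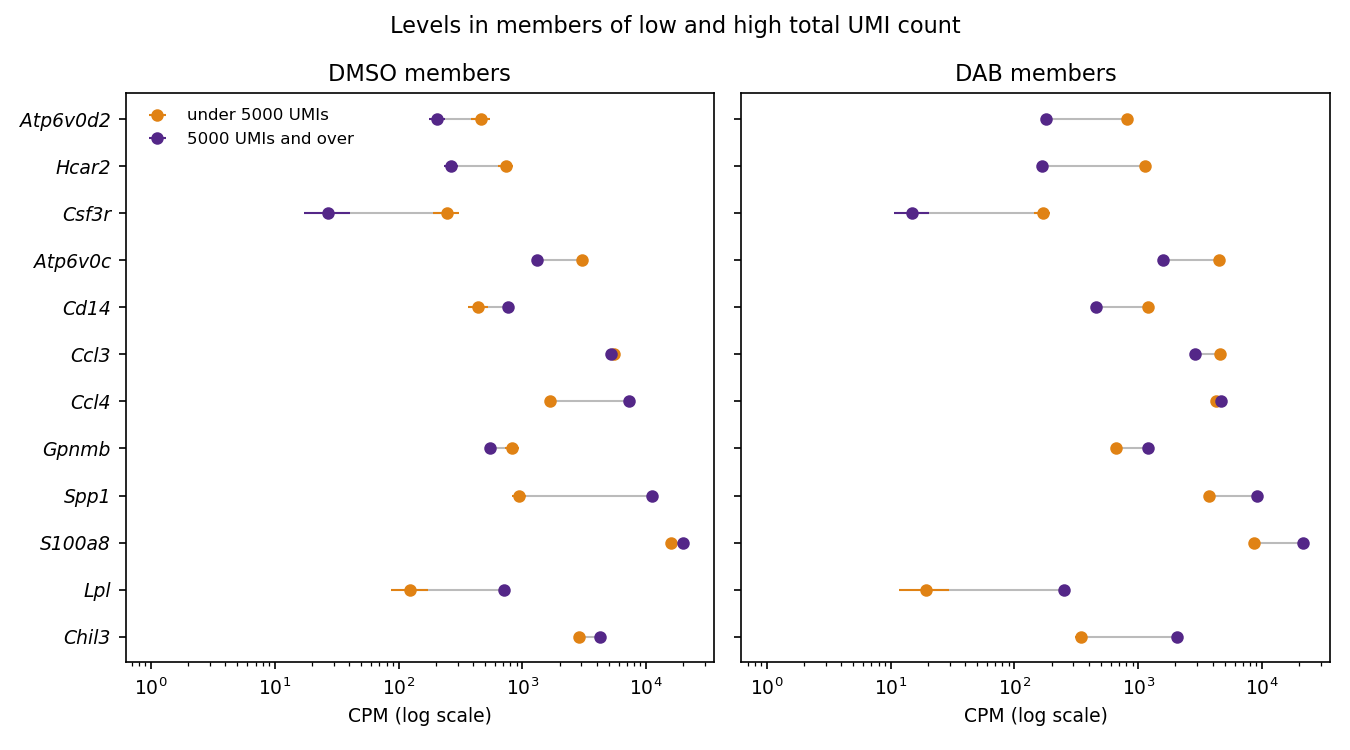
Levels of selected genes in CPM (log axis) in members under 5000 UMIs and in members with 5000 UMIs or more, with 95% counting intervals as bars, for DMSO on the left and DAB on the right. Hcar2, Atp6v0d2 and Csf3r are higher in the shallower members of both libraries, and Spp1, Lpl and Chil3 are higher in the deeper ones.

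Summed over gene lists, the 17 V-ATPase genes were higher in shallower than in deeper members by a log2 ratio of 0.92 (0.85 to 0.99) in DMSO. The 77 ribosomal protein genes differed by -0.77 (-0.79 to -0.75) and the unfolded protein response genes by -1.03 (-1.16 to -0.91). The chemoattractant receptor list, in which Hcar2 is the most abundant, differed by 0.84 in DMSO and 1.42 in DAB. A level summed over the members therefore weights the deeper cells more.

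Tnf and Il1b were highest in the members with the most chemokine UMIs, a description of cells ordered by the values that chose them. The bins held 105, 52 and 35 DMSO members at 30 to 60, 60 to 120 and 120 or more chemokine UMIs per 10,000, and 304, 155 and 87 DAB members. Tnf stood at 162, 193 and 675 CPM in these DMSO bins and at 129, 193 and 692 CPM in the DAB bins. Il1b stood at 233, 230 and 858 CPM in DMSO and at 102, 84.6 and 698 CPM in DAB. Csf1 stood at 313, 450 and 589 CPM in DMSO and at 335, 445 and 1190 CPM in DAB. Gpnmb went another way in DAB, at 1149, 1171 and 330 CPM.

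A minority of members held Gpnmb and Atp6v0d2 together. At 1000 UMIs per cell 18 of 192 DMSO and 55 of 546 DAB members held both, and with all UMIs 42 and 140. Of DMSO members with a Gpnmb UMI after thinning 48.6% also held Atp6v0d2, against 23.2% of members without Gpnmb, and in DAB these shares were 38.5% and 29.5%. The cells of a library share that library, and no test was made.

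Mmp13 separated members from few cells in DMSO and more in DAB. Cells that met every other limit but held at least 1 Mmp13 UMI numbered 7 in DMSO (42015 UMIs) and 86 in DAB (873553 UMIs, median 10354, 89.5% with at least 5000 UMIs). Of 5232 genes tested in both libraries, 15 were higher in members than in these cells, 0.287%, and 14 were lower, 0.268%, with the DMSO values resting on 7 cells. A single one of the 7 held 39.3% of their UMIs, so the DMSO levels of Mmp13-positive cells lean on that cell. In the DAB library alone 383 of 5620 genes were higher, 6.81%, and 79 were lower, 1.41%. Restricted to DAB cells of at least 5000 UMIs, 193 members against 77 Mmp13-positive cells, 304 genes were higher and 73 lower. No share over the genes tested is given for this restriction, so its counts cannot be set beside those percentages.

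The genes named as lower in members than in the Mmp13-positive cells included Ly6g, S100a9, Mmp8, Ngp and Cxcl3. The Mmp13-positive DAB cells were deeper than DAB members, with medians of 10354 and 3721.5 UMIs. Within DAB members the mature neutrophil list stood at 46356 CPM in deeper and 22806 CPM in shallower cells. The secondary granule list stood at 4637 and 1210 CPM in the same order. Csf3r, another neutrophil gene, was not lower over all cells, at 58.6 against 18.3 CPM in DAB and 81.3 against 71.4 CPM in DMSO, the last value from 3 UMIs. In DAB cells of at least 5000 UMIs its log2 ratio was -0.15 (-1.06 to 0.85), against 1.68 over all DAB cells. Ly6g, the surface antigen of mouse neutrophils, stood at 42.7 CPM in DAB members against 538 CPM, and at 86.6 against 571 CPM in DMSO. S100a9, the partner of S100a8, stood at 17009 against 42872 CPM in DAB and 21548 against 49268 CPM in DMSO. Mmp8, the neutrophil collagenase, stood at 738 against 1896 and 475 against 2213 CPM, and Ngp, a granule protein, at 114 against 458 and 1180 against 2904 CPM. Mmp25, a membrane-bound protease of leukocytes, and Acpp, an acid phosphatase, were lower too. Cxcl3, a CXCR2 ligand, stood at 4563 against 13505 CPM in DAB and 670 against 1737 CPM in DMSO.

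Among the genes named as higher in members, Lpl stood at 561 CPM in DMSO members and 186 CPM in DAB members, with 0 and 1 UMI in the Mmp13-positive cells. Atp6v0d2 stood at 358 against 92.7 CPM in DAB, with a log2 ratio of 1.95 (1.62 to 2.29) when all cells were used and 0.93 (0.58 to 1.29) in cells of at least 5000 UMIs, where members still held more UMIs per cell (2614230 in 193 members and 848593 in 77 Mmp13-positive cells). Hcar2 had a log2 ratio of 1.30 over all DAB cells and -0.04 (-0.31 to 0.24) in the deep cells. Tnf had 1.30 over all and 1.47 in the deep cells, Gadd45b 2.26 and 0.85, and Chst11, an enzyme that sulfates chondroitin, 1.45 and 1.60. Mgl2, a lectin of monocytes and dendritic cells, Mmp19 and the endoplasmic reticulum protein gene Sdf2l1 were higher as well. Among cells of at least 5000 UMIs the Hcar2 interval thus included 0 and the Tnf interval (1.11 to 1.84) did not.

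Between the conditions, members of the DAB library held more Cxcl3, and 13 of 32 amino acid response genes were higher in them, while 5 of 10 secondary granule genes, 5 of 21 lipid handling genes and Nos2 were lower. Of 5818 genes that reached 20 CPM in the members of 1 or both libraries, 210 were at least 2-fold higher in DAB members with an interval that left out 0, 3.61%, and 183 were lower, 3.15%. The median log2 ratio of all tested genes was 0.07. When the single member with the most UMIs of each gene was left out, 199 of the 210 and 127 of the 183 calls remained, a choice made after seeing the data. In all, 301 genes were then called higher and 127 lower. The library totals were kept, and 1 cell is a larger part of 192 DMSO than of 546 DAB members. The step therefore lowers DMSO levels more, moves ratios toward DAB, and cannot show that the lower calls are less stable. Under median ratio scaling 170 were higher and 215 lower, against 210 and 183 without it, so which direction held more calls depended on the scaling. A summed level cannot tell more cells with a transcript from more transcript per cell, so numbers of cells are given beside it. As a background for these numbers, at most 3.70% of the B cells of either library held a UMI of Il1b, Cd14, F3, Ptgs2, Cth, Lpl, Lipg, Nos2, Igfbp6, Aqp9, Csta3 or Hdc. The B cells were chosen with little Lyz2, a myeloid transcript, which can leave out those with more free myeloid RNA. Every B-cell share given here may therefore understate the background.

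**Figure D4:**
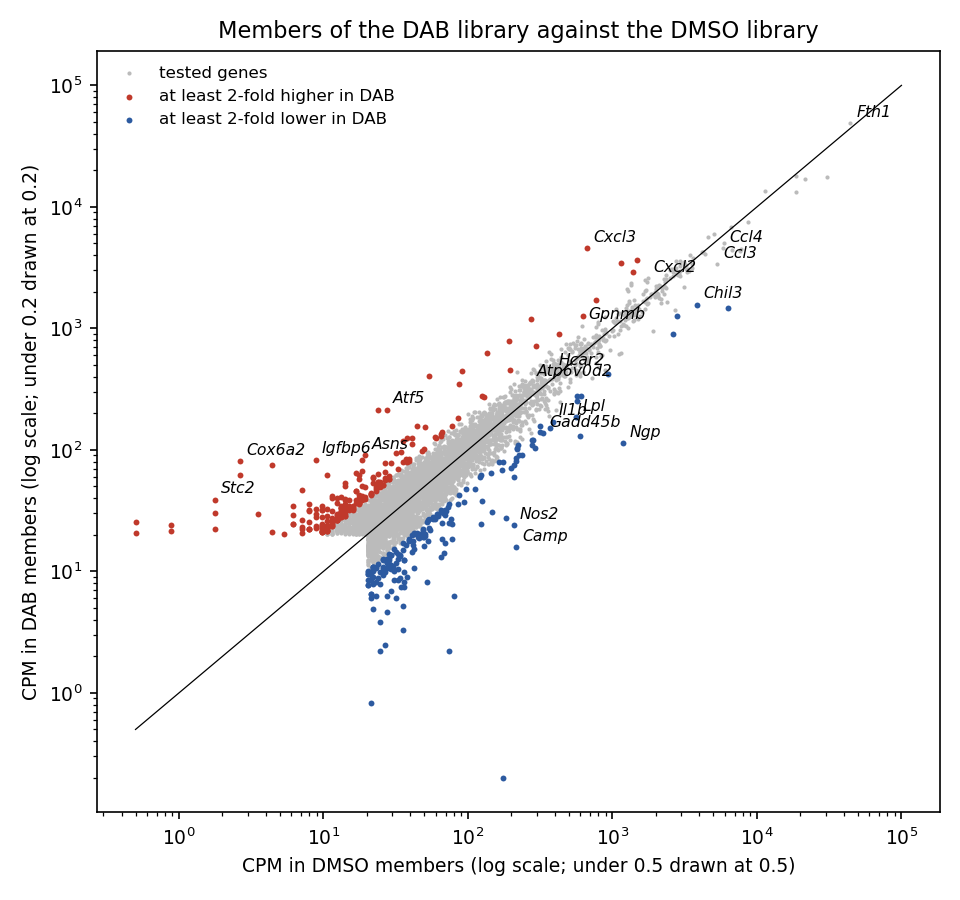
Level in DAB members against level in DMSO members, each in CPM on log axes, with 1 point per tested gene and very low values drawn at the axis limits. Points above the diagonal are higher in the DAB library; of 5818 genes 210 were called higher and 183 lower, and labelled points include Cxcl3, Atf5, Ngp and Nos2.

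Of 11 tested chemokine ligands 4 were higher in DAB members and 1 was lower, with a list median of 0.56. Without the MHC class II, C1q, Mmp12 and basophil limits of the gate the median was -0.13, and Ccl24 and Pf4, both among the 4, were at -1.61 and -0.13. Cxcl3 (chr5:90786103-90789600, plus strand) stood at 670 CPM in DMSO and 4563 CPM in DAB members, a log2 ratio of 2.77 (2.66 to 2.87). It was held by 61 of 192 DMSO and 384 of 546 DAB members, and no single DAB member held more than 3.58% of its UMIs. Cxcl2 (chr5:90903871-90905938, plus strand), which is separated from Cxcl3 by 114270 bases, stood at 1749 and 2587 CPM, a log2 ratio of 0.56 (0.49 to 0.64). At 1000 UMIs per cell Cxcl3 was present in 19.3% of the members in DMSO and 55.0% in DAB, and Cxcl2 in 34.4% and 67.0%. In B cells Cxcl3 was present in 0 of 108 in DMSO (upper bound 3.36%) and 5.42% in DAB, and Cxcl2 in 0 of 108 and 3.01%.

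The other ligands called were found in fewer cells than Cxcl3. Ccl2, the ligand of CCR2, stood at 53.9 and 404 CPM in 11 of 192 and 99 of 546 members, a log2 ratio of 2.91 (2.54 to 3.30), and 1 cell held 50.8% of its UMIs in DMSO and 38.9% in DAB. Without that cell in each library the ratio was 3.22. Among members under 5000 UMIs it was 1.26, and the lowest of 15 alternatives was 0.63, short of 2-fold. At 3000 UMIs per cell Ccl2 was present in 6.60% (2.70 to 13.1) of the members in DMSO and 16.0% (12.3 to 20.2) in DAB, and it was found in no B cell. Pf4 stood at 4.42 and 74.8 CPM in 5 and 64 members, a log2 ratio of 4.08 and of 3.96 without its top cells, and 0.926% and 3.01% of B cells held it. Ccl24, an attractant of eosinophils, had 1 UMI in DMSO members and 88 in DAB members, 43.2% of them in 1 cell, and was present in 2.75% of DAB members and 1.81% of DAB B cells. Cxcl10, an interferon-induced ligand, was lower, at 24.8 and 2.19 CPM, in 4 members of each library.

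Of 32 tested genes of the amino acid response, which GCN2 and the transcription factor ATF4 drive, 13 were higher in DAB members and 1, Atf3, was lower. The list median was 0.83, against 0.07 for all genes, and 28 of the 32 ratios were above 0. Summed, the list stood at 4981 CPM in DMSO and 5700 CPM in DAB members. Its most abundant gene, Cebpb, stood at 2376 and 1663 CPM. In the other cells of the libraries the list median was 1.19. Atf5, a transcription factor of this response, stood at 27.4 CPM in DMSO and 215 CPM in DAB members (log2 ratio 2.97, 2.45 to 3.54) and was held by 23 of 192 and 267 of 546 members. After thinning it was present in 1.56% (0.323 to 4.50) of the members in DMSO and 16.7% (13.6 to 20.1) in DAB, against 1.85% and 0.602% of B cells.

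The enzymes of asparagine and serine synthesis and of mitochondrial one-carbon metabolism were among the 13. Asns, asparagine synthetase, stood at 19.5 CPM in DMSO and 90.1 CPM in DAB members, with a log2 ratio of 2.21 (1.59 to 2.91). Phgdh and Psat1 of serine synthesis had log2 ratios of 1.92 (1.18 to 2.75) and 1.69 (0.90 to 2.60), and Shmt2 and Mthfd2 had 1.43 (0.48 to 2.54) and 1.76 (1.29 to 2.26). Cth, which makes cysteine from cystathionine, had 0 UMIs in DMSO members and 75 UMIs in 43 DAB members, a log2 ratio of at least 2.95 against a floor of 3 counts.

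Transport, tRNA charging and regulation were represented as well. Slc7a5, a transporter of large neutral amino acids, had a log2 ratio of 1.93 (1.26 to 2.69), and Aars and Iars, which charge tRNAs with alanine and isoleucine, had 1.71 (1.26 to 2.20) and 1.88 (0.95 to 2.98). Trib3, a pseudokinase, had 2.17 (1.53 to 2.88), Cebpg 1.07 (0.60 to 1.57), and Stc2, a secreted glycoprotein, 4.46 (2.58 to 7.52) from 2 UMIs in DMSO members. Atf4 itself stood at 179 and 279 CPM, a log2 ratio of 0.64 (0.42 to 0.86), below the 2-fold limit. Ddit3, which encodes CHOP, stood at 128 and 205 CPM.

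Atf3 was the only gene of the list called lower, at 291 CPM in DMSO and 104 CPM in DAB members, a log2 ratio of -1.49 (-1.71 to -1.27). It was also counted with the AP-1 and immediate early genes, of which 3 of 19, Fos, Atf3 and Zfp36, were lower and none was higher. Fos stood at 69.9 and 17.0 CPM. Gadd45b stood at 333 and 137 CPM, a log2 ratio of -1.28 (-1.48 to -1.08).

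**Figure D5:**
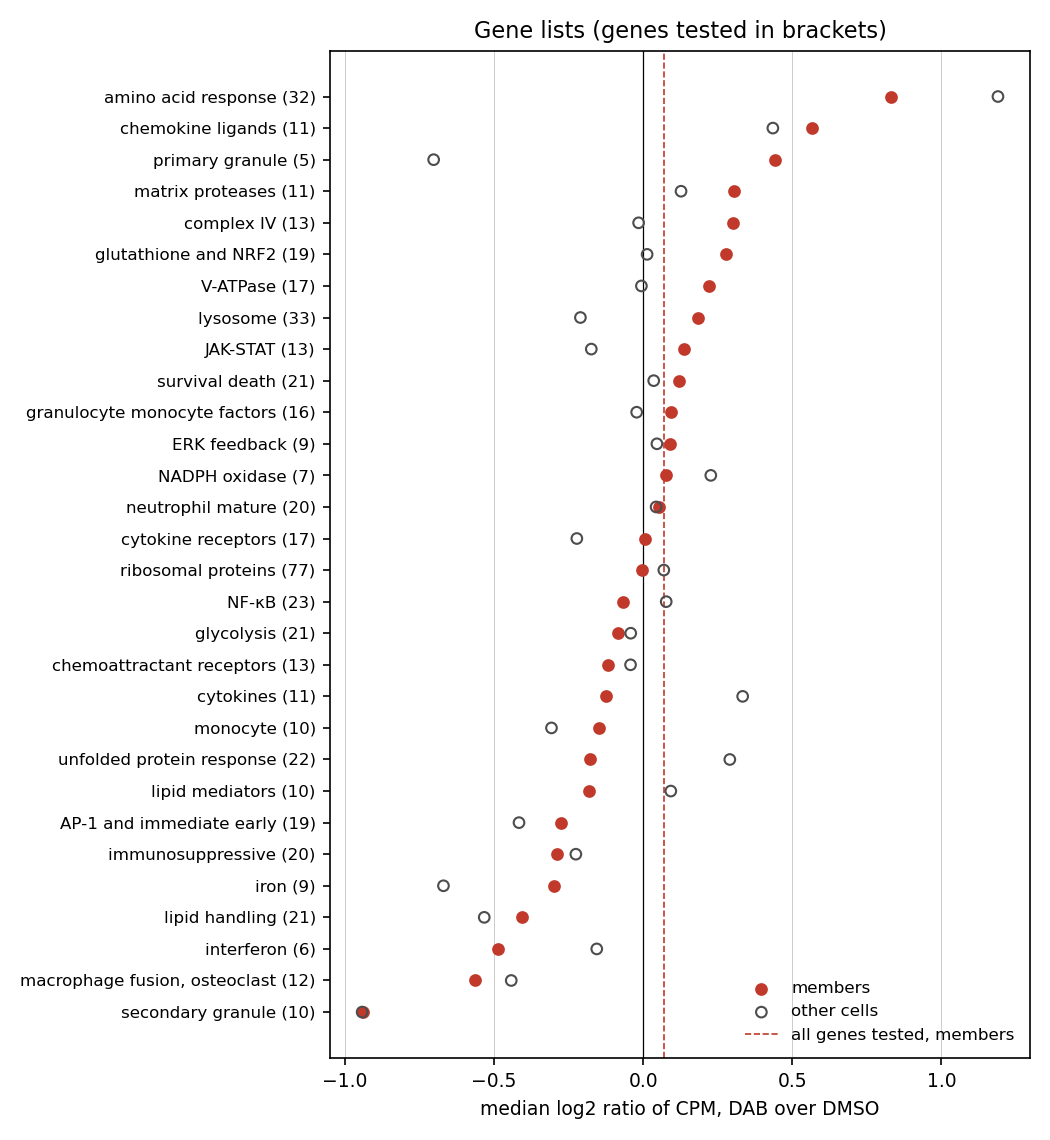
Median log2 ratio of DAB over DMSO (horizontal axis) over the tested genes of each list, in members (filled) and in the other cells (open), with the number of genes tested in brackets and a dashed line at the median of all genes in members. The amino acid response list has a median of 0.83 and the secondary granule list -0.94, beside 0.07 for all 5818 genes tested.

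Of 10 tested secondary granule genes 5 were lower in DAB members, Ltf, Camp, Ngp, Cybb and Chil3, and none was higher, with a list median of -0.94. Ngp stood at 1180 CPM in DMSO and 114 CPM in DAB members (log2 ratio -3.37, -3.53 to -3.21), and 1 DMSO member held 39.7% of the UMIs. Camp, the antimicrobial peptide cathelicidin, stood at 217 and 15.9 CPM, and 49.0% of the DMSO UMIs lay in 1 member. Chil3 stood at 3876 and 1571 CPM, with no cell above 7.19% of its UMIs. It was present in 61.5% of DMSO and 39.9% of DAB members, and in 49.0% and 25.6% after thinning. Its level in B cells was also lower in the DAB library, at 912 and 280 CPM, with a UMI in 17.6% and 10.8% of them (9.26% and 5.42% after thinning). Cybb, the catalytic subunit of the phagocyte NADPH oxidase, stood at 284 and 121 CPM. Hp, which encodes the hemoglobin-binding protein haptoglobin, stood at 123 and 24.7 CPM. Its log2 ratio was -2.32, and -0.88, short of 2-fold, among members under 5000 UMIs.

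In all, 5 of 21 tested lipid handling genes were lower in DAB members and none was higher, with a list median of -0.41, although the list summed to 7866 CPM in DMSO and 8138 CPM in DAB, of which Lgals3 made up 4556 and 5684 CPM. The lower ones were Pparg, Lpl, Olr1, Dgat1 and Acsl1, which regulate, release, take up, esterify and activate lipids. Lpl stood at 561 and 186 CPM (log2 ratio -1.59, -1.75 to -1.43), in 43 and 77 members. Olr1, the receptor for oxidized lipoprotein, stood at 200 and 70.7 CPM, and Pparg, a lipid-sensing nuclear receptor, at 53.1 and 17.8 CPM. Lipg, the endothelial lipase, stood at 52.2 and 8.22 CPM in 24 and 25 members.

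Of 20 tested immunosuppressive genes Nos2, Cd274, Il4i1 and Ptges were lower and Havcr2 was higher. Nos2, the inducible nitric oxide synthase, stood at 207 and 24.1 CPM (log2 ratio -3.10, -3.47 to -2.74), in 38 and 42 members. In DMSO 1 member held 32.9% of the UMIs. The Nos2 ratio was -2.74 without the top member and -2.14 as a mean over cells. It was -1.60 among members under 5000 UMIs and -3.35 among deeper ones. Cd274 stood at 316 and 141 CPM in 126 and 271 members, 65.6% and 49.6%, beside 22.2% and 15.1% of B cells.

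Of 11 tested cytokine genes Il1a and Il1b were lower in DAB members. Il1b stood at 386 and 171 CPM (log2 ratio -1.18, -1.35 to -0.995), but in members under 5000 UMIs it stood at 149 and 223 CPM, the other way around. Il1a stood at 121 and 59.4 CPM, and in members under 5000 UMIs at 21.3 and 51.1 CPM. Tnf stood at 295 and 217 CPM and Il1rn at 1409 and 1293 CPM. None of 23 tested NF-kB genes was called.

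The metallothioneins Mt1 and Mt2, which bind metal ions, were lower in DAB members, Mt1 at 2790 and 1263 CPM and Mt2 at 224 and 91.5 CPM. Mmp19, a matrix metalloproteinase, stood at 184 and 27.7 CPM, and the transcription factor gene Batf3 at 35.4 and 5.20 CPM. Abcc5, an exporter of cyclic nucleotides, and Aff2 stood at 64.6 and 13.2 CPM and at 36.3 and 7.40 CPM. The log2 ratio of Abcc5 was -2.30, and -0.92, short of 2-fold, among members under 5000 UMIs. The heat shock genes Hspa1a and Hspa1b are near-identical copies whose reads can be split, and 86.8% and 65.1% of their DMSO UMIs came from 1 member each. Ube2c, a cell cycle gene, drew 71.8% of its DMSO UMIs from 1 member.

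Among genes higher in DAB members outside the lists' main groups, Igfbp6, a binding protein of insulin-like growth factors, stood at 8.84 and 83.0 CPM in 7 and 152 members. Cox6a2, an isoform of a cytochrome oxidase subunit known from muscle, stood at 2.65 and 80.5 CPM in 2 and 71 members, but after thinning it was present in 0 of 192 and 2.75% of members and in 2.78% and 3.61% of B cells, so its share of members was at the background level. Aqp9, a channel for water and glycerol, stood at 10.6 and 61.6 CPM in 9 and 107 members. Csta3, of the stefin A family in which reads can be split among copies, stood at 2.65 and 61.9 CPM in 2 and 44 members.

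Of the 6 basophil and mast cell markers only Gata2 reached the level for testing, and it was called higher in DAB members. Hdc, Cd200r3 and Akr1c18, named for their ratios and also known from basophils, are given beside it. Hdc, which makes histamine, stood at 23.9 and 211 CPM in 16 and 92 members, Cd200r3 at 1.77 and 30.4 CPM, Gata2 at 6.19 and 34.8 CPM, and Akr1c18 at 1.77 and 22.5 CPM with 56.1% of the DAB UMIs in 1 cell. Members with at least 2 UMIs of the basophil and mast cell markers numbered 2 in DMSO and 22 in DAB. Without them, a choice made after seeing the data, the log2 ratios were 2.19 for Hdc, 1.87 for Cd200r3, 0.67 for Gata2 and 1.45 for Akr1c18. Without the MHC class II, C1q, Mmp12 and basophil limits of the gate Gata2 was at -0.23 and Akr1c18 at -0.72.

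Among lists not yet described, Serpinb2 and Slpi, inhibitors of proteases, were higher in DAB members, of 11 tested genes of matrix breakdown, and 2 genes, Mmp19 among them, were lower. Slpi stood at 771 and 1716 CPM in 132 and 461 members, 68.8% and 84.4%, beside 7.41% and 18.7% of B cells. Of 20 mature neutrophil genes G0s2 and Hdc were higher and Ly6g and Mxd1 lower, with a median of 0.05. The log2 ratio of Ly6g was -1.02 and ranged from -3.685 to -0.18 over 15 alternatives. Without its top member it was -0.92, and among members of at least 5000 UMIs -0.54, both short of 2-fold. Of 10 monocyte genes Ccr2 and F13a1 were lower (median -0.15), and Ccr2 was also among the 2 lower genes of 13 chemoattractant receptors (median -0.12). Of 10 genes of lipid mediators Alox5 and Pla2g4a, which start leukotriene synthesis, were higher and Ptges, a prostaglandin E synthase, was lower.

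Of 19 glutathione and NRF2 genes Sqstm1, an autophagy receptor, was the one called, at 427 and 907 CPM, with a list median of 0.28. Of 21 survival and death genes Bcl2 and Bid were higher (median 0.12), of 22 unfolded protein response genes Ern1 (median -0.18), of 17 cytokine receptors Il6ra (median 0.01), and of 33 lysosome genes Gusb and Man2b1. Of 13 complex IV genes Cox6a2 was the one called (median 0.30), and of 6 interferon genes Isg15 and Cxcl10 were lower (median -0.49). Of 12 macrophage fusion and osteoclast genes Ocstamp and Mitf were lower (median -0.56), the former from 4 and 3 members. No gene was called among 21 glycolysis (median -0.08), 13 JAK-STAT (0.14), 9 ERK feedback (0.09) and 9 iron genes (-0.30), and of 7 NADPH oxidase genes Cybb alone was called (0.08). Of 16 granulocyte and monocyte transcription factors Bhlhe41 and Mitf were lower (0.09).

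The 3 markers of the set differed by less than 2-fold between the libraries, and their direction depended on depth. Gpnmb stood at 620 and 1054 CPM (log2 ratio 0.77, 0.65 to 0.88), Atp6v0d2 at 271 and 358 CPM (0.40, 0.22 to 0.59) and Hcar2 at 383 and 442 CPM (0.21, 0.05 to 0.36). Among members of at least 5000 UMIs the log2 ratio was -0.66 for Hcar2, -0.20 for Atp6v0d2 and 1.14 for Gpnmb, and among members under 5000 UMIs it was 0.62, 0.80 and -0.34. The V-ATPase and lysosome lists had medians of 0.22 and 0.18, and the 77 ribosomal protein genes a median of -0.00 with none called.

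Several of the large differences between DAB and DMSO members had a ratio of similar size in the other cells of the same 2 libraries, which share the libraries but not the cells. The log2 ratio in members beside that in other cells was 2.77 and 2.78 for Cxcl3, 2.97 and 2.75 for Atf5, 2.21 and 2.31 for Asns, -3.10 and -3.34 for Nos2, and -1.59 and -1.60 for Lpl. Cxcl2 was at 0.56 in members and 2.07 in other cells, the level in other cells going from 124 to 522 CPM. Ngp was at -3.37 and -1.78. Gpnmb was at 0.77 and -0.09. The rule for ranking took genes outside the gate with at least 20 CPM in 1 or both libraries in members and likewise in other cells. In the main setting the ratio in members exceeded that in other cells most for Ccl24, Pf4, Ccl17, Cd200r3, Elane and Hgfac. It fell below it most for Ube2c, Retnlg, Ngp, Cxcl2 and Endog. Under alternatives the ratio in members went as low as -1.61 for Ccl24, -0.13 for Pf4, -3.30 for Ccl17 and -1.43 for Elane. The ratio of Ube2c in members went from -2.22 to -0.69 without its top member. Cth was also named by that rule, but its ratio in members is a lower bound and gives it no rank. Ccl17, a ligand of CCR4, was at 0.77 in members and -2.88 in other cells. In each library 1 cell held 93.3% and 84.8% of the members' UMIs. The ratio of Ccl17 in members had another sign in 4 of 13 alternatives, and was -1.995 without members holding basophil UMIs. Retnlg, a resistin-like protein of neutrophils, was at -0.14 in members and 1.61 in other cells, its level in members being 812 CPM in DMSO and 737 CPM in DAB. Hgfac was at 3.08 and 0.75 and Endog, a mitochondrial nuclease, at -1.94 and -0.48. None of these differences between members and other cells was tested.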

How the data were processed

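In all, 2 libraries of mouse bone marrow MDSC (DMSO and DAB) were used. The deposited values are counts: per the labels the authors aligned reads to mm10 in Cell Ranger (version 7.0.0), giving UMIs per gene and barcode without normalization. Barcodes held 106792967 UMIs in DMSO (median 8068) and 165506902 in DAB (median 10273). Members and gene lists were chosen with earlier results of these data known. UMIs were summed over the cells of a group and scaled to CPM. Ratios had exact conditional binomial intervals and shares Clopper-Pearson intervals (95%), computed with scipy 1.17.1, numpy 2.4.6 and pandas 2.3.3 (Python 3.11.15). A gene was called at 2-fold with an interval that left out 0, among genes of at least 20 CPM. Doublets were kept as the gate is written; a removal at 0.8% per 1000 barcodes was an alternative and took 8 DMSO and 25 DAB members. The ratio step was tested on simulated counts.

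Named genes were those of the gate and the markers, the 12 largest ratios in each direction against other cells and between DAB and DMSO members, the 8 largest against Mmp13-positive cells, the 6 genes of at least 20 CPM in both cell sets whose ratio differed most from that in other cells in each direction, and members of the 40 gene lists. Alternatives changed the chemokine limit, the UMI, mitochondrial and Mmp13 limits, the other limits of the gate, the scaling, the CPM minimum and the fold. The integrated object and cluster labels of the study were not used here. Some named genes are not reported here.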

Additional observations from a re-analysis of the deposited data

Results flagged for a closer look

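Of the 393 genes called between DAB and DMSO members 23 had a ratio of opposite sign in the other cells of the same libraries. Among the named genes and the gene lists, outside the genes of the gate, 5 of them also had a counting interval in the other cells that left out 0. The differences were not tested. Ccl24 had a log2 ratio of 4.77 in members, from 1 UMI in 1 DMSO member and 88 UMIs in 15 DAB members, and -0.61 in the other cells. Mpo had at least 3.26, from 0 UMIs in DMSO members and 93 UMIs that all lay in 1 DAB member, and -0.70 in the other cells. Elane had 1.82, with 86.5% of its DAB UMIs in 1 member, and -0.84 in the other cells. Its ratio in members turned to -1.43, -1.08, -1.21 and -0.93 under 4 alternatives. Ccl24 turned to -1.61 under 1. Il6ra, a subunit of the IL-6 receptor, had 1.48 (0.48 to 2.66), held by 7 DMSO and 62 DAB members with no DAB member above 3.70% of its UMIs, and -0.38 in the other cells; 3.65% of DMSO and 11.4% of DAB members held it, beside 3.70% and 6.02% of B cells. Isg15, an interferon-induced gene, had -1.03 (-1.52 to -0.54), held by 27 and 73 members (14.1% and 13.4%, beside 3.70% and 7.83% of B cells), and 0.23 in the other cells.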

How the results depend on the processing

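Cells are not replicates and each condition had 1 library, so leaving out replicates was not possible, and no value here measures the spread between cultures. No paired analysis was possible because the result comes from no test. The share of members was 2.87% in DMSO and 7.06% in DAB at a limit of 20 chemokine UMIs per 10,000, 1.09% and 2.62% at 50, 1.17% and 2.34% at a minimum of 5000 UMIs, 2.48% and 5.27% without the MHC class II, C1q, Mmp12 and basophil limits, and 2.53% and 6.26% with the gate applied at 1000 UMIs per cell. At a minimum of 2000 UMIs the DMSO share was 1.69%. In each of these the DAB share was the higher one.

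The count of genes higher in DAB members was 366 at a chemokine limit of 50, 444 with a mean over cells, 75 at 50 CPM, 426 without a CPM minimum and 688 at 1.5-fold, and the count of lower genes was 81 at 50 CPM, 286 without a minimum and 509 at 1.5-fold. Among members under 5000 UMIs, a choice made after seeing the data, 452 were higher and 329 lower. Against other cells, 103 were higher at a minimum of 5000 UMIs, 289 without a CPM minimum and 415 at 1.5-fold, and 60 were lower at 50 CPM, 455 without a minimum and 408 at 1.5-fold. Against Mmp13-positive cells, 180 were higher and 59 lower with a mean over cells, 41 and 30 at 1.5-fold, and 304 and 73 in deep DAB cells, also chosen after seeing the data. The cause was not tested, except that other CPM minimums and folds test other genes or call at another size.

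Of 74 named ratios 37 had another sign under at least 1 alternative, among them 9 of 37 that were called. Elane was at -1.43 at a limit of 50, -1.08 without scored doublets, -1.21 with the gate at 1000 UMIs and -0.93 without members holding basophil UMIs. Without the 4 other limits of the gate, Ccl24 was at -1.61, H2-Aa at -1.06, Akr1c18 at -0.72, Gata2 at -0.23, Ccdc80 at -0.17 and Pf4 at -0.13. Among members under 5000 UMIs, Il1a was at 1.27 and Il1b at 0.58. Among the ratios not called, Ccl4 ranged from -0.62 to 1.36 and Cd14 from -0.76 to 1.45. The amino acid response median lay between 0.61 and 1.04 and the secondary granule median between -1.32 and -0.81 over 15 alternatives; the chemokine ligand median lay between -0.13 and 1.10, and that of macrophage fusion genes between -0.79 and 0.14.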
